A study of Mus musculus with 5 samples.

Results

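The chromosomal contacts of the Pik3r1 promoter region in skeletal muscle of GRko mice were compared with those in wild-type (WT) muscle. All 4 muscle libraries of the series took part, of 5 libraries in all; the fifth, from CD4+/CD8+ double-positive (DP) thymocytes, is given only as a reference value. The units compared were DpnII restriction fragments of chromosome 13 more than 10 kb from the bait. A fragment was called covered when a library had at least 10 reads on it. Of 292153 such fragments, 11262 were covered in at least 1 muscle library.

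The WT and GRko muscles came from C57/Bl6 mice aged 10 to 12 weeks, with 2 libraries per genotype, and DP thymocytes were sorted from the thymus of WT mice of the same strain at 4 weeks. The genotype of the GRko animals is labelled only as KO. From knowledge of the study, GRko is taken to mean that the glucocorticoid receptor was knocked out; neither the allele nor a tissue-specific Cre driver stands in the labels. Muscle libraries were made from extracted nuclei of whole tissue, so fibre nuclei and those of other resident cells are mixed. Whether the replicates are separate animals is not in the labels, and the p-values below therefore rest on the spread of libraries, which may be technical. The receptor gene lies on another chromosome and 4C counts carry no expression, so neither the genotype nor the tissue could be checked in these data.

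In 4C-seq, crosslinked chromatin is cut and religated so that DNA lying close together in the nucleus is joined, and everything ligated to a chosen bait fragment is amplified and sequenced. Pik3r1 encodes p85α and the shorter p55α and p50α, the regulatory subunits that hold the catalytic subunit of phosphoinositide 3-kinase and couple it to insulin and growth factor receptors. In muscle the glucocorticoid receptor is known as a driver of protein breakdown and of resistance to insulin, and Pik3r1 is among the genes that glucocorticoids induce there. The question addressed is whether the set of regions that touch the Pik3r1 promoter region differs in muscle without the receptor.

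The bait lay at chr13 position 101766365 (mm10), 1852 bp inside the Pik3r1 gene from its annotated start at 101768217. Pik3r1 (gene ID 18708) lies on the minus strand, from 101680761 to 101768217, so lower coordinates follow the gene body and higher coordinates run upstream, past Cd180 toward Mast4. A second annotated start lies within the gene at 101692630, 73735 bp from the bait. The 250 bases before each start follow in the direction of transcription, from RefSeq (GRCm38.p6, the assembly behind mm10), because the first sits next to the bait and the second was contacted in every library. Capitals mark the DpnII site GATC and the Csp6I site GTAC, the enzymes used to cut the chromatin and then the ligated DNA.
Pik3r1 start at 101768217, minus strand, chr13:101768218-101768467: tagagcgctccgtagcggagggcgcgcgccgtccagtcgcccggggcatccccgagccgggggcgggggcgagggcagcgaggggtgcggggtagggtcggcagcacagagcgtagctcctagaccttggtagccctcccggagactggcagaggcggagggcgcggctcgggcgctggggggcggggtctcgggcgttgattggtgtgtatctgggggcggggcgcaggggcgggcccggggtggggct
Pik3r1 start at 101692630, minus strand, chr13:101692631-101692880: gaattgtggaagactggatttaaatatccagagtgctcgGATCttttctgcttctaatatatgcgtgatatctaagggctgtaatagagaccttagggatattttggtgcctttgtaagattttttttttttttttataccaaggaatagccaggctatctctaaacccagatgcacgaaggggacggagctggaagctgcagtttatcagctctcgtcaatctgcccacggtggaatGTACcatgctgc
The window at the bait holds neither site, and the inner window holds 1 of each. Of 1527 such windows of chromosome 13 genes, 43.2% hold a GATC and 31.8% a GTAC. A strict form of the glucocorticoid response element, AGAACA and TGTTCT with any 3 bases between them, was in 0 of them. Its absence from the Pik3r1 windows thus does not set them apart. The arm AGAACA alone, searched on both strands so that TGTTCT counts too, was in 16.2% of the windows and in neither Pik3r1 window.

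Within 1.5 Mb of the bait, 2 fragments covered in at least 2 muscle libraries lie whole in the 250 bases before a gene start, and they show what a counted fragment is. The first lies upstream of the non-coding gene Gm41044, 248 kb from the bait, and the other upstream of Gm41045, 713 kb from it. Both are printed on the plus strand, with capitals marking the DpnII sites at either end.
Gm41044 fragment, plus strand, chr13:102014558-102014586: GATCtggctgtaagaactaggaccaGATC
Gm41045 fragment, plus strand, chr13:102479692-102479800: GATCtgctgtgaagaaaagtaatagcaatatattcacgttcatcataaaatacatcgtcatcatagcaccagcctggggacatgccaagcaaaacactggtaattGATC
The Gm41044 fragment, 29 bases long, had 271 reads in WT 1, 1939 in WT 2, 0 in GRko 1 and 1293 in GRko 2. The Gm41045 fragment, 109 bases long, had 271 reads in WT 1, 2235 in WT 2, 3 in GRko 1 and 0 in GRko 2. The first was thus below 10 reads in GRko 1 alone and the other in both GRko libraries, and the reads on either fragment differed widely between libraries of 1 genotype.

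WT 1 and GRko 1 were read at 29 nt after removal of the bait sequence and WT 2 and GRko 2 at 23 nt, so each genotype pair below joins libraries of 1 read length. Chromosome 13 reads per muscle library ran from 1317351 to 5750330, and 11.1% to 13.6% of them lay within 10 kb of the bait. Beyond 10 kb, 5070323 reads were left in WT 1, 2230793 in WT 2, 2698013 in GRko 1 and 1171584 in GRko 2. The WT library had 1.88 times the reads of its GRko partner in the 29 nt pair and 1.90 times in the 23 nt pair. Read length and replicate number coincide, so they cannot be told apart. These reads carry no molecular identifiers, so PCR copies count as separate reads.

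Fewer fragments were covered in GRko than in WT muscle in both pairs. WT 1 had 7008 covered fragments, WT 2 had 2299, GRko 1 had 3502 and GRko 2 had 1566, against 10003 in DP thymocytes. The genotypes overlapped, because GRko 1 had more than WT 2. The ratio of WT over GRko was 2.00 in the 29 nt pair and 1.47 in the 23 nt pair. The WT mean was 4654 ± 3330 and the GRko mean 2534 ± 1369 (SD, 2 libraries each). The exact permutation test, two-sided, had p = 0.667, where 2 against 2 libraries cannot go below 0.333. Without WT 1, the library with the most reads, the GRko mean was 235 fragments above WT. Reads beyond 10 kb were fewer in GRko in both pairs too, and the part of sequencing depth in the covered counts was not tested.

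The excess in WT lay at different distances in the pairs. Within 1.5 Mb of the bait, a region of 7284 fragments, 2675 were covered in WT 1, 1222 in WT 2, 1728 in GRko 1 and 718 in GRko 2, which makes ratios of 1.55 and 1.70. Beyond 1.5 Mb, 4333, 1077, 1774 and 848 were covered in the same order, with ratios of 2.44 and 1.27. The near region therefore held 38.2% of the covered fragments in WT 1, 53.2% in WT 2, 49.3% in GRko 1 and 45.8% in GRko 2. GRko exceeded WT by 11.2 percentage points in the 29 nt pair and fell below it by 7.30 points in the 23 nt pair (difference of -7.30), and the exact permutation p was 1.

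The threshold of 10 reads left out few reads but many fragments. Fragments with 1 to 9 reads were 25% of all read fragments in WT 1, 50.5% in WT 2, 29.9% in GRko 1 and 55.2% in GRko 2. Their share was higher in GRko than in WT in both pairs, and higher in both 23 nt libraries than in both 29 nt libraries. They carried between 0.170% and 0.320% of a library's reads. Just inside the threshold, at 10 or 11 reads, WT 1 had 250 fragments, WT 2 had 76, GRko 1 had 115 and GRko 2 had 56. Just outside it, at 8 or 9 reads, the numbers were 265, 97, 148 and 63. The near region held 29.6%, 40.8%, 43.5% and 33.9% of the fragments just inside, and 26.4%, 45.4%, 43.2% and 36.5% of those just outside.

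Contacts thinned out with distance in every library, though not evenly, with a step about 1 Mb from the bait. The covered share rose in every library from the class at 23.7 kb to that at 42.2 kb, in WT 1 from 74.6% to 90%. It rose again from 4217 to 7499 kb, in WT 1 from 2.42% to 3.43%. In the distance class centred on 13.3 kb, 97.3% of the fragments were covered in WT 1, 83.8% in WT 2, 83.8% in GRko 1 and 62.2% in GRko 2. In the class at 750 kb the values were 39.2%, 16.5%, 24.6% and 8.68%, and in the next class, at 1334 kb, 11.1%, 3.53%, 5.28% and 2.09%. From 750 kb outward to that class the libraries stood in the order of their reads. The slope of log10 covered share on log10 distance from 10 kb to 10 Mb was -0.588 in WT 1, -0.803 in WT 2, -0.727 in GRko 1 and -0.788 in GRko 2. The slope was steeper in GRko in the 29 nt pair and flatter in the 23 nt pair, the groups overlapped, and the exact permutation p was 1.

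**Figure D1:**
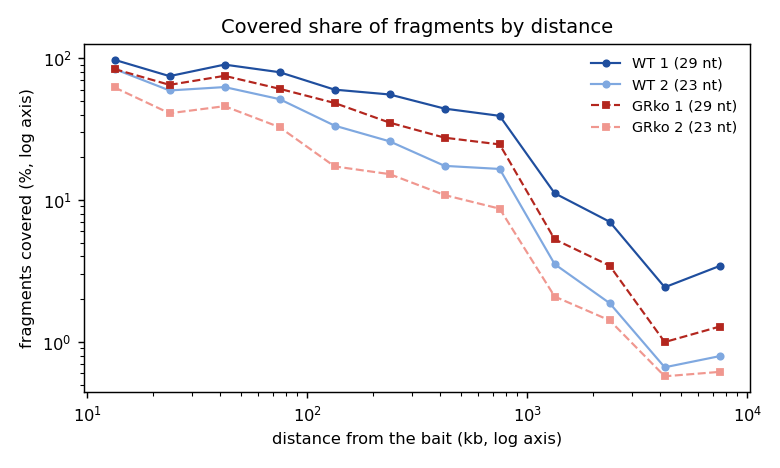
Share of restriction fragments with at least 10 reads (%, log axis) by distance from the bait (kb, log axis) in 12 distance classes from 10 kb to 10 Mb, one line per muscle library. The lines fall together, except for rises in each library at the classes of 42.2 and 7499 kb. They stay in the order WT 1, GRko 1, WT 2, GRko 2 at most distances, from 97.3% to 62.2% in the first class.

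In both genotypes the upstream side of Pik3r1, at higher coordinates, had most of the covered fragments within 1.5 Mb. The share was 64.6% in WT 1, 72.2% in WT 2, 66.7% in GRko 1 and 67.5% in GRko 2, against 48.7% in DP thymocytes. Both GRko values lay between the WT values. GRko was 2.03 points above WT in the 29 nt pair and 4.63 points below it in the 23 nt pair (difference of -4.63), with an exact permutation p of 1. The pairs therefore disagreed in sign when every covered fragment counted once.

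The answer changed once the libraries were brought to the same number of fragments. Taking the 1566 fragments of most reads from each library, which is all that GRko 2 had, the higher side held 70.9% in WT 1, 72.1% in WT 2, 67.6% in GRko 1 and 67.5% in GRko 2. Both GRko libraries now lay below both WT libraries, by 3.26 points in the 29 nt pair and 4.56 in the 23 nt pair (differences of -3.26 and -4.56). The difference of the means was -3.91 points, with WT at 71.5% ± 0.885 and GRko at 67.6% ± 0.0287 (SD, n = 2 each). The exact permutation p was 0.333, the smallest this design allows. Any 2 against 2 libraries that do not overlap give this p, so it cannot pass a threshold of 0.05. Weighting each fragment by its reads also put both GRko libraries below both WT libraries, at 71.3%, 70.6%, 66.7% and 66.1%. With 25 kb left out, or with a minimum of 1 or 100 reads, the genotypes overlapped and the pairs differed in sign. The 29 nt and 23 nt pairs were at 2.32 and -3.65 points with 25 kb left out. They were at 2.81 and -2.87 points with 1 read, and at 0.710 and -4.37 with 100 reads.

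Among 12 zones of distance and side, the WT and GRko libraries lay apart in 1 zone. The higher side between 1000 and 1500 kb, where Mast4 lies, held 9.20% of the near covered fragments in WT 1, 7.45% in WT 2, 6.42% in GRko 1 and 6.69% in GRko 2. The exact permutation p was 0.333, and 1 after Benjamini-Hochberg adjustment over the 12 zones. With the same number of fragments per library the values were 5.65%, 6.83%, 6.11% and 6.69%, which overlap, and the difference of the means turned from -1.77 to 0.158 points. With a minimum of 1 or 100 reads, or with 25 kb left out, the genotypes stayed apart with GRko lower. The differences of the means were -2.09, -1.20 and -1.74 points in that order. With reads in place of fragments the genotypes overlapped, at -1.25 points. The zone difference was thus absent at equal fragment number but not under every alternative. Equal number also sets a different read minimum in each library, and the part of either was not tested.

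The zones that separated the genotypes at equal fragment number lay elsewhere. There 6 of 12 zones were apart, against 1 in the full lists. The lower side between 1000 and 1500 kb, with Cdk7, Rad17 and Ocln, had 1.51% and 1.04% of the near fragments of the WT libraries but 2.31% and 2.09% of those of the GRko libraries. These shares rest on few fragments: the 2.09% of GRko 2, whose full list this is, were 15 fragments. Upstream, the zone from 500 to 1000 kb with Cd180 had 24.5% and 24.7% in the WT libraries against 23.8% and 22.0% in the GRko libraries. Each of the 6 had the smallest possible exact permutation p of 0.333, and 0.667 after Benjamini-Hochberg adjustment over the 12 zones. The zones are shares of the same total, so they do not vary independently.

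**Figure D2:**
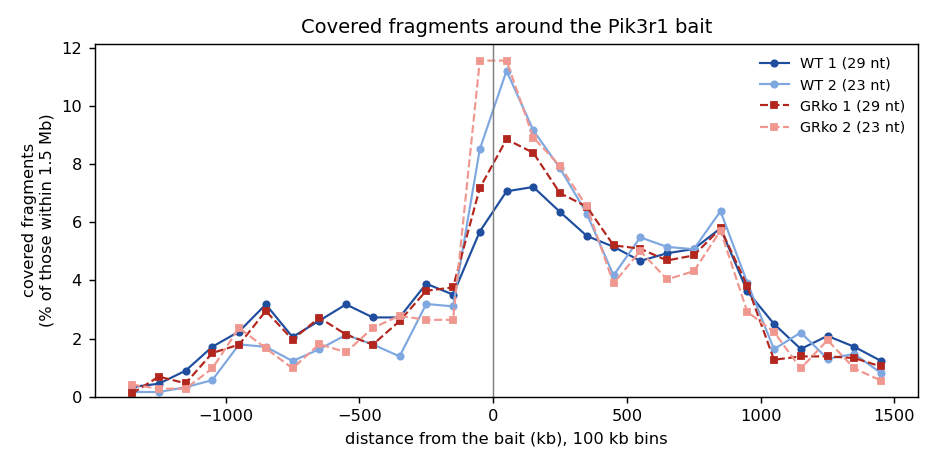
Covered fragments per 100 kb bin as a share of all covered fragments within 1.5 Mb (%), by distance from the bait (kb; positive values are the higher-coordinate side), for the 4 muscle libraries, leaving out the nearest 10 kb. All libraries are skewed to the higher side and fall about 1 Mb from the bait there; the largest spread between libraries is in the bins next to the bait, from 5.68% in WT 1 to 11.6% in GRko 2 on the lower side.

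No 100 kb bin differed between the genotypes in its covered fragments. With edgeR's quasi-likelihood test and Benjamini-Hochberg adjustment at 0.05, 0 of 29 bins (0%) passed. Without adjustment 0 reached a p under 0.05, and the DESeq2 count of calls was 0. In 1 bin (3.45%) both GRko libraries lay above both WT libraries as shares of near covered fragments, and in 5 bins (17.2%) both lay below. The median log2 ratio of GRko over WT was -0.07, with 10 bins above 0 and 19 below. DESeq2's size factors moved that median to 0.09, with 21 bins above 0 and 8 below, so the split of directions depends on the scaling.

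The bin with the smallest p was the one that holds most of the Pik3r1 gene body. On the lower side out to 100 kb (chr13:101666365-101766364), 152 of 180 fragments were covered in WT 1, 104 in WT 2, 124 in GRko 1 and 83 in GRko 2. As a share of near covered fragments this was 5.68%, 8.51%, 7.18% and 11.6%, so the genotypes overlapped. The log2 ratio of GRko over WT was 0.39 ± 0.22 (SE), with an edgeR p of 0.0882 and an adjusted p of 0.981. The matching bin on the higher side, chr13:101766366-101866365, was at 0.16 ± 0.21, with shares of 7.07%, 11.2%, 8.85% and 11.6%. In each pair the library with fewer covered fragments had the larger share in both bins next to the bait. The count in the lower bin cannot exceed its 180 fragments, and the part of this ceiling in the shares was not tested.

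The bins of lowest p in the other direction lay in Mast4, which encodes a microtubule-associated serine/threonine kinase, and in a region of non-coding genes. The bin 1100 to 1200 kb upstream, inside Mast4 (chr13:102866366-102966365), had 44 covered fragments in WT 1, 27 in WT 2, 24 in GRko 1 and 7 in GRko 2. These were 1.64%, 2.21%, 1.39% and 0.975% of the near covered fragments, and both GRko values lay below both WT values. The log2 ratio was -0.60 ± 0.53 with an edgeR adjusted p of 0.981. The neighbouring Mast4 bin (chr13:102766366-102866365) was at -0.40 ± 0.47 and its libraries overlapped, as did those of the bin 500 to 600 kb on the lower side, at -0.51 ± 0.41.

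Reads gave the gene body more weight in GRko muscle than covered fragments did. The bin chr13:101666365-101766364 held 11.7% of the near reads in WT 1, 11.8% in WT 2, 15.6% in GRko 1 and 18.9% in GRko 2. Both GRko libraries lay above both WT libraries, and DP thymocytes, at 18.2%, lay between the GRko libraries. The log2 ratio was 0.55 ± 0.20, with an edgeR p of 0.0251 and an adjusted p of 0.753. Of 30 bins of reads 0 (0%) passed in edgeR and 0 in DESeq2, and this bin alone (1 of 30) was under 0.05 before adjustment in edgeR. Without GRko 1 the same bin passed, with a log2 ratio of 0.69 and an adjusted p of 0.00814, and without GRko 2 it passed at 0.41 and 0.0458. It did not pass without WT 1 (0.55, adjusted p of 0.974), without WT 2 (0.56, 0.916) or with the replicate block (0.55, 0.913), all by edgeR. Both GRko libraries were above both WT libraries in 3 bins (10%) and below them in 5 (16.7%).

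The reads of that bin were unevenly spread over its fragments. The bin's mean reads per covered fragment were 2225 in WT 1, 1516 in WT 2, 2138 in GRko 1 and 1442 in GRko 2. These are raw reads, not scaled to the reads of the library. The WT library had 1.88 times the reads beyond 10 kb of its GRko partner in the 29 nt pair and 1.90 times in the 23 nt pair. Unscaled, the genotypes overlapped in this mean, which was somewhat lower in GRko than in WT in both pairs. It therefore cannot be set beside the shares of reads as a comparison of the genotypes. The 5 fragments of most reads held 20.7%, 37.5%, 31.7% and 45.9% of the bin's reads in the same order. A pair of gene body fragments described below, at 101746311 and 101741859, held 0.542% of the near reads in WT 1, 1.36% in WT 2, 1.89% in GRko 1 and 4.02% in GRko 2. Without them the bin held 11.2%, 10.6%, 14.0% and 15.5%, and the genotypes stayed apart. Those fragments were picked because both GRko libraries lay above both WT libraries on them. Leaving them out therefore had to lower the GRko excess, and no test was made.

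Agreement between the pairs was low across bins. The log2 ratio of GRko over WT had the same sign in both pairs in 16 of 29 bins of covered fragments and in 12 of 30 bins of reads. Across the 29 bins the ratios of the pairs had a Pearson r of -0.197 and a Spearman rho of 0.0195, as a description of bins that share their libraries. The levels themselves were much alike: Pearson r across the same bins was between 0.896 and 0.977 for every pair of muscle libraries. The highest, 0.977, was between WT 1 and GRko 1.

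Beyond 1.5 Mb no window of 1 Mb differed either. With edgeR, 0 of 111 windows (0%) passed after adjustment. Before it 7 were under 0.05, 4 of them higher and 3 lower in GRko, and by DESeq2 the count of calls was 0. Both GRko libraries lay above both WT libraries in 17 windows (15.3%) and below them in 23 (20.7%). The smallest adjusted p, 0.422, belonged to the window at chr13:43266365-44266364, 57500 to 58500 kb away on the lower side, with Sirt5, a mitochondrial deacylase, and Ranbp9 among its genes. It had 85 covered fragments in WT 1, 28 in WT 2, 23 in GRko 1 and 8 in GRko 2, at a log2 ratio of -0.84 ± 0.29. On the other side of the bait, the window chr13:116266366-117266365 had 47, 9, 27 and 17 covered fragments and a log2 ratio of 0.70 ± 0.28, with an adjusted p of 0.669. The libraries of the genotypes lay apart in both windows.

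Gene spans were counted next, since a contact within a gene can be named. With edgeR, 0 of 158 genes with enough covered fragments (0%) passed, and 0 passed with DESeq2. Before adjustment 3 were under 0.05 in edgeR, each of them lower in GRko. Both GRko libraries lay above both WT libraries in 10 genes (6.33%) and below them in 43 (27.2%). The median log2 ratio over all 158 was -0.26, with 69 above 0 and 89 below. DESeq2's scaling put that median at 0.01, with 80 above and 78 below.

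Of 21 neighbours of Pik3r1, 12 had enough covered fragments and 0 passed, against 0 of 158 overall. Their median log2 ratio was 0.04, with 7 above 0 and 5 below. Pik3r1 itself had 135 of its 155 fragments covered in WT 1, 98 in WT 2, 114 in GRko 1 and 79 in GRko 2. That was 1.93%, 4.26%, 3.26% and 5.04% of each library's covered fragments, and the genotypes overlapped, at a log2 ratio of 0.45 ± 0.38, which was -0.07 without WT 1. In counts, fewer Pik3r1 fragments were covered in GRko than in WT in both pairs. The count cannot exceed 155, and the part of this ceiling in the shares was not tested. Mast4 had 303, 119, 143 and 60 of 1332 fragments covered, or 4.32%, 5.18%, 4.08% and 3.83%. Both GRko values were the lower ones, at a log2 ratio of -0.25 ± 0.39 and an edgeR adjusted p of 0.970.

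Other neighbours showed no common direction. Cd180, a surface receptor of B cells related to the Toll-like receptors, had 10, 6, 8 and 2 of 19 fragments covered, with overlapping shares and a log2 ratio of 0.19 ± 0.63. Slc30a5, a zinc transporter, had 17, 5, 10 and 3 of 78, and was at 0.12 ± 0.53. Cenph, a kinetochore protein, had 6, 2, 5 and 4 of 36, which was a larger share in both GRko than in both WT libraries, at 1.02 ± 0.82. Ak6, a nuclear adenylate kinase, had 6, 3, 2 and 0 of 41, at -1.23 ± 1.06. Among the tested neighbours it was the only one besides Mast4 with both GRko shares lower. The apoptosis inhibitor gene Naip5 had 0 covered fragments in every library. The Naip genes are near-identical copies in which short reads are hard to place, so their counts are uncertain.

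Of 10 muscle genes of the chromosome, 6 were tested and 0 passed, with a median log2 ratio of -0.61, 2 above 0 and 4 below. Mef2c, a transcription factor of muscle differentiation 18.2 Mb from the bait, had 12 covered fragments in WT 1, 3 in WT 2, 8 in GRko 1 and 5 in GRko 2. Its share of covered fragments was larger in both GRko than in both WT libraries, at 0.66 ± 0.59. Homer1, a scaffold protein of muscle calcium signalling, had 9, 5, 3 and 0 and a smaller share in both GRko libraries, at -1.30 ± 0.97. Ryr2, a calcium release channel, had 10, 1, 1 and 2 and overlapped.

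Of 11 genes of hormone and growth factor signalling, 5 were tested and 0 passed, with a median log2 ratio of -0.28, 2 above 0 and 3 below. Pde4d, which breaks down cyclic AMP, had 103 covered fragments in WT 1, 45 in WT 2, 39 in GRko 1 and 18 in GRko 2 of 3082. These were 1.47%, 1.96%, 1.11% and 1.15% of the covered fragments, lower in both GRko libraries, at -0.57 ± 0.37 with an edgeR adjusted p of 0.970. Map3k1, a kinase upstream of stress-activated kinases, had 5, 4, 1 and 0 and was lower in both too, at -2.11 ± 1.198. Edn1, the endothelin gene, had 0 reads in every library.

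Single fragments were shared to a limited degree, and the pairs of equal genotype did not share the most. Covered fragments found in 1, 2, 3 and all 4 muscle libraries numbered 9181, 1281, 568 and 232. Of the covered fragments of WT 1, 73.6% were covered in no other muscle library, as were 51.9% of those of WT 2, 56.3% of GRko 1 and 54.9% of GRko 2. To set equal lists side by side, the 718 near fragments of most reads were taken from each library. For GRko 2, the library with the fewest reads, these are all its near covered fragments, down to 10 reads. WT 1 and WT 2 then shared 264 (36.8% of each list) and GRko 1 and GRko 2 shared 211 (29.4%). Across genotypes, WT 1 and GRko 1 shared 313 (43.6%), WT 2 and GRko 2 shared 226 (31.5%), WT 2 and GRko 1 shared 262 (36.5%) and WT 1 and GRko 2 shared 233 (32.5%). Every pair with GRko 2 thus shared less than every pair without it, and the part of its depth in this was not tested.

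**Figure D3:**
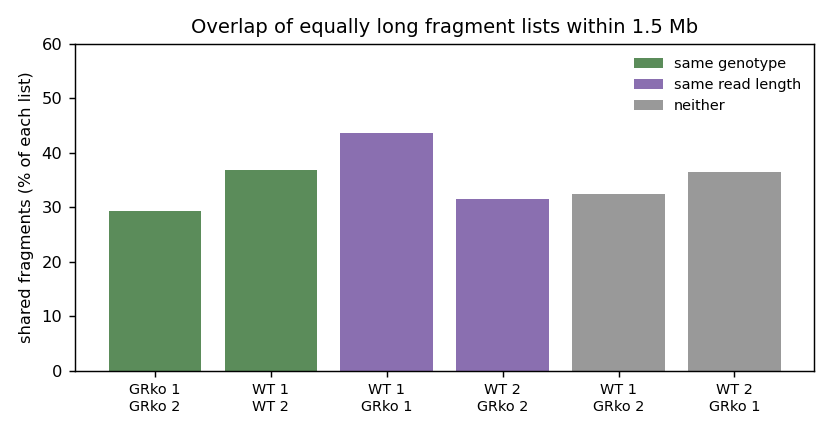
Fragments shared by each pair of muscle libraries among the 718 near fragments of most reads of each, as a share of either list (%). The largest overlap, 43.6%, joins WT 1 with GRko 1, and the smallest, 29.4%, joins the GRko libraries. WT 1 with WT 2, at 36.8%, lies within the range of the pairs across genotypes. The 718 are all near covered fragments of GRko 2, and every pair with GRko 2 shares less than every pair without it.

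Sharing between the genotypes was lower far from the bait than near it, and the side with more of it changed with distance. On the higher side between 100 and 250 kb, WT 1 and GRko 1 shared 194 fragments, 69.0% of the WT list and 94.2% of the GRko list. On the lower side at that distance they shared 45, or 31.2% and 48.4%. WT 2 and GRko 2 shared 69 on the higher side, 42.3% and 68.3%, and 7 on the lower side, 12.1% and 23.3%. At this distance both pairs thus had the larger overlap upstream, where more fragments were covered. On the higher side 81.7% of the fragments were covered in WT 1 and 59.9% in GRko 1, against 37.3% and 24.1% on the lower. In WT 2 and GRko 2 it was 47.4% and 29.4% on the higher side, and 15.0% and 7.77% on the lower. Whether sharing differed by side beyond this coverage was not tested. Between 10 and 50 kb the larger share of the WT list was on the lower side, at 87.7% against 83.2% in the 29 nt pair and 73.8% against 48.6% in the 23 nt pair. Beyond 1.5 Mb, WT 1 and GRko 1 shared 101 fragments, 2.33% and 5.69% of their lists, and WT 2 and GRko 2 shared 24, 2.23% and 2.83%. There 0.298% to 1.52% of the fragments were covered in a muscle library, against 9.86% to 36.7% within 1.5 Mb.

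The 232 fragments covered in all 4 muscle libraries were found in both genotypes and at both read lengths. Of them, 231 lay within 1.5 Mb and 110 within 100 kb of the bait. There were 54 in the Pik3r1 gene, 0 in Mast4 and 167 in no annotated gene span. Beyond 100 kb, 118 lay on the higher side and 4 on the lower side. DP thymocytes covered 228 of the 232. In reads, they took 12.3% of the total beyond 10 kb in WT 1, 15.9% in WT 2, 16.6% in GRko 1 and 19.0% in GRko 2.

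As shares of reads, 37 of the 232 (15.9%) were higher in both GRko than in both WT libraries, 31 (13.4%) were lower in both, and 164 overlapped. Inside Pik3r1, 10 of 54 were higher and 6 lower, and outside it 27 of 178 were higher and 25 lower. The log2 ratio of GRko over WT had the same sign in both pairs for 114 of the 232. Across these fragments the pairs' ratios had a Pearson r of 0.0377 and a Spearman rho of 0.0636, and their SD was 2.25 in the 29 nt pair and 2.75 in the 23 nt pair. A single fragment's reads therefore varied several-fold between libraries in a way that the pairs did not share.

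**Figure D4:**
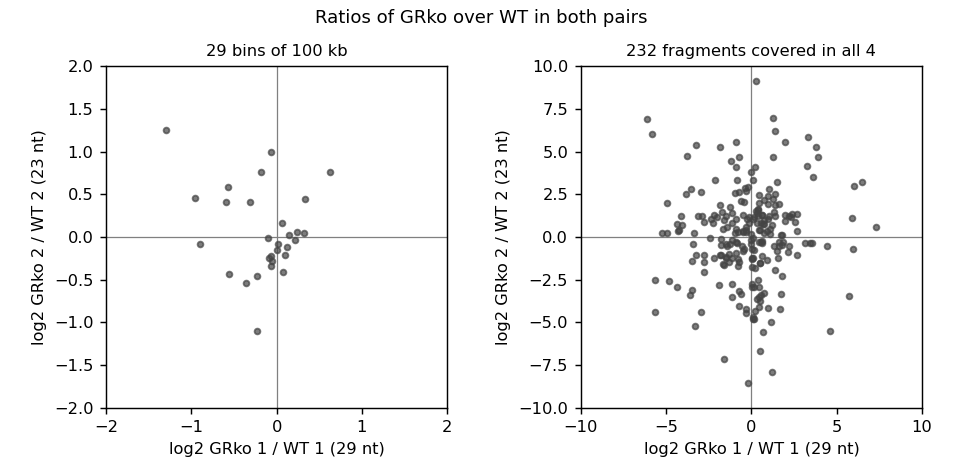
Log2 ratio of GRko over WT in the 29 nt pair (horizontal) against the 23 nt pair (vertical), for 29 bins of covered fragments (left) and for the reads of 232 fragments covered in all 4 libraries (right). Points scatter over all 4 quadrants, with the same sign in both pairs for 16 bins and 114 fragments.

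The strongest shared contacts lay in the Pik3r1 gene and in the intergenic stretch just upstream. Ranked by the lowest share of reads over the 4 libraries, the first 10 comprised 3 in Pik3r1 and 7 in no gene span, and 8 lay within 100 kb. The first, at 101753317, 13048 bp into the gene from the bait, had 18104 reads in WT 1, 19495 in WT 2, 7781 in GRko 1 and 15160 in GRko 2, or 0.357%, 0.874%, 0.288% and 1.29% of the reads. Its genotypes overlapped.

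The other gene body fragments of this group had more of the reads in GRko muscle. The fragment at 101746311, 20054 bp into the gene, had 10007 reads in WT 1, 7455 in WT 2, 12871 in GRko 1 and 18401 in GRko 2. These were 0.197%, 0.334%, 0.477% and 1.57% of the reads, with log2 ratios of 1.27 and 2.23 in the pairs. The fragment at 101741859, 24506 bp into the gene, had 5656, 10790, 19262 and 7118 reads, or 0.112%, 0.484%, 0.714% and 0.608%, with log2 ratios of 2.68 and 0.33. In both fragments the GRko libraries lay above the WT libraries, although the size of the difference was unlike in the pairs.

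Upstream, 3 of the 7 intergenic fragments were higher in both GRko libraries and 4 overlapped. Among all 232 fragments covered in all 4 libraries, 37 (15.9%) were higher and 31 (13.4%) lower in both GRko libraries. Those 232 together already took more of the reads in GRko, at 16.6% and 19.0% against 12.3% and 15.9% in WT. The fragment at 101799609, 33.2 kb upstream, took 0.166% of the reads in WT 1, 0.242% in WT 2, 0.314% in GRko 1 and 0.303% in GRko 2. The fragment at 102164630, 398 kb upstream, took 0.126%, 0.175%, 0.194% and 0.423% in the same order, and 0.0160% in DP thymocytes. The fragment at 101813352, 47.0 kb upstream, took 0.313%, 0.443%, 0.315% and 0.187%. That last fragment overlapped between the genotypes, as did those 59.6, 67.0 and 169 kb upstream.

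**Figure D5:**
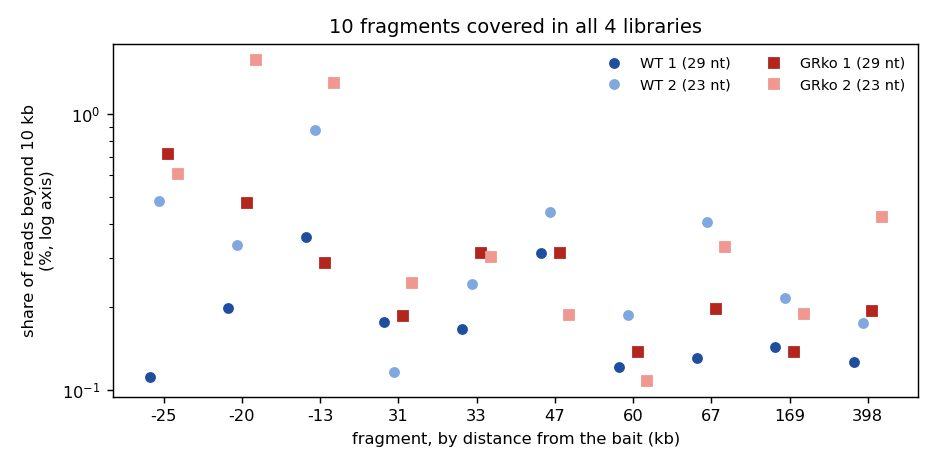
Share of all reads beyond 10 kb (%, log axis) on the 10 fragments with the highest share in their lowest library, ordered by distance from the bait (kb; negative values lie in the Pik3r1 gene body), one point per muscle library. Circles are WT and squares GRko. The squares lie above the circles for the fragments at -25, -20, 31, 33 and 398 kb, and the groups overlap for the other 5. Of all 232 fragments covered in all 4 libraries, 15.9% were higher and 13.4% lower in both GRko libraries.

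Fragments covered in both libraries of 1 genotype and in neither of the other were a minority. There were 295 for WT among 938 covered in both WT libraries (31.4%), and 64 for GRko among 453 (14.1%). With 1566 fragments per library the shares were 25.6% (79 of 309) and 23.4% (59 of 252), so most of the gap between the genotypes went away at equal list length. These fragments were chosen for their difference and have no test. Mast4 held 27 of the 295 and 6 of the 64, and Pik3r1 held 9 and 0. At equal list length Mast4 held 3 of the 79 and 4 of the 59, and Pik3r1 held 3 of each.

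Among the WT-only fragments the one with the most reads in its lower library was at 102604512, in the pseudogene Gm47014, 838 kb upstream. It had 6162 reads in WT 1 and 9966 in WT 2, and 3 in each GRko library. The next lay in Slc30a5, at 100831805, with 4873 and 12055 reads in WT and 1 in each GRko library. Another, at 101783636, only 17.3 kb upstream of the bait, had 4365 and 4513 reads in WT, 1 in each GRko library and 12919 in DP thymocytes. In its zone, from 10 to 50 kb upstream, between 39.7% and 81.9% of the fragments were covered in a muscle library.

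Among the GRko-only fragments the first was in Mast4, at 102987674, 1221 kb upstream, with 0 reads in both WT libraries, 1343 in GRko 1, 1451 in GRko 2 and 726 in DP thymocytes. The second, at 102715329, lay between Cd180 and Mast4 in no gene span, 949 kb upstream, with 0, 1, 1081 and 4567 reads. DP thymocytes had 0 reads on the second.

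Gene starts near the bait were contacted in both genotypes. Within 1.5 Mb, 34 genes have an annotated start whose surroundings (2 kb either way) were examined. Such surroundings held a covered fragment for 31 genes in WT 1, 20 in WT 2, 26 in GRko 1 and 16 in GRko 2, which is the order of their covered fragments. For 9 genes they did so in all 4 libraries, among them Slc30a5 and the inner start of Pik3r1, and the others were non-coding genes. For 0 of the 34 genes were both libraries of 1 genotype covered and neither of the other. Beyond 1.5 Mb, 226, 56, 96 and 41 of 1253 genes had a covered fragment at their start, and 0 in all 4. There 8 genes were covered in both GRko and no WT library and 11 in both WT and no GRko library.

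At the inner Pik3r1 start, whose upstream sequence is printed above, 5 of 7 fragments were covered in WT 1, 2 in WT 2, 5 in GRko 1 and 4 in GRko 2. Together they had 10473, 6247, 4222 and 5104 reads, or 0.207%, 0.280%, 0.156% and 0.436% of the reads, and the genotypes overlapped. One fragment, at 101691811, was covered in every library, with 2852, 5940, 2546 and 3608 reads. The fragment at 101692513 had 4455 reads in WT 1, 0 in WT 2, 39 in GRko 1 and 1415 in GRko 2. Contact of the bait with the inner start was thus seen in both genotypes, with 1 fragment covered in every library and the others in some of them.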

How the data were processed

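The tables that the authors deposited hold 1 count of reads for each restriction fragment on chromosome 13, without normalization, per the file headers. The position given for a fragment is its midpoint, as all 311 fragments that lie whole in the promoter windows showed. The submitters' processing notes name bcl2fastq, Bowtie 1.0.0 and mm10; the step from reads to fragments is not given in the sources used. In a muscle library 1 to 3 fragments beside the bait had no entry, all within 10 kb.

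Covered fragments were counted per library and compared as shares by exact two-sided permutation tests (scipy 1.17.1). Bins of 100 kb within 1.5 Mb, windows of 1 Mb beyond and gene spans (RefSeq, GRCm38.p6) with at least 10 covered fragments over the 4 libraries, and bins with 10 reads in 2 libraries, were tested with edgeR 4.0.16 in R 4.3.3, with the sum over the tested region (all covered fragments for genes) as library size, Benjamini-Hochberg adjustment and a threshold of 0.05. The tests were tested on simulated data. Alternatives were TMM, DESeq2 1.42.0, no filter, other bins, 25 kb left out, 1 or 100 reads as minimum, equal fragment numbers, reads in place of fragments, each library left out, and the replicate block. Per the labels the replicate number marks the read length; same-numbered deviations from the group means correlated at 0.258 over near bins, -0.0285 over far windows and 0.0025 over bins of reads. Pair log2 ratios of bins had 0.5 added to each count.

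The members, gene lists and rules were chosen with earlier results of these data known. Bins and windows were named as the 3 of smallest p per direction, since none passed, of which some are given; fragments as the 10 with the highest share in their lowest library and, per genotype, the 3 with the most reads in its lower library; genes from lists of 21 neighbours, 10 muscle genes and 11 signalling genes. Ranbp9 and Sirt5 are named only as genes of a window. Start sites and the gene body split were examined after the values were seen.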

Additional observations from a re-analysis of the deposited data

How the results depend on the processing

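All 4 tests across bins, windows and genes called 0 under every alternative run, replicate block included (0 bins of covered fragments, 0 windows, 0 bins of reads, 0 genes), except the bins of reads when a library was left out, with a range of 0 to 1. Leaving out a library left 1 in its genotype, assumed to vary like the 2 of the other genotype. No comparison of shares could reach a p under 0.05 with 2 libraries per genotype. At equal fragment number the difference of GRko minus WT turned to 0.0084 for the slope and -2.39 points for the near share, and that of the higher zone from 1000 to 1500 kb to 0.158 points. Without 1 library the difference ranged from -4474 to 235 covered fragments, -5.07 to 2.47 points in the higher side share, -5.56 to 9.43 points in the near share and -0.169 to 0.0456 in the slope. The number of zones with the genotypes apart was 2 at 1 read, 3 at 100 reads, 6 at equal number and 5 with reads, and 2 to 10 without a library. Single log2 ratios that changed sign were those of the bin 101766366 (-0.0244 at equal number), Ccdc125 (0.37 at 1 read, 0.0182 in DESeq2), Cd180 (-0.0875) and Gpbp1 (-0.59) at 1 read, and Ntrk2 (0.0602 in DESeq2). Without a library they ranged from -0.17 to 0.97 (reads, 101266365), -0.0328 to 0.93 (101366365), -1.12 to 0.32 (reads, 101566365), -0.17 to 0.50 (101766366), -0.74 to 0.063 (102766366), -0.42 to 0.46 (Cd180), -1.83 to 0.43 (Cdk7), -1.55 to 0.27 (Cmya5), -0.32 (Mrps36), -5.24 to 0.24 (Naip1), -0.87 to 1.15 (Pde8b), -0.0721 to 1.07 (Pik3r1), 0.18 (Rad17), -1.94 to 0.11 (Ryr2) and -0.30 to 0.27 (Slc30a5). Other causes of these changes were not tested. Each genotype had 2 libraries, and counts of 0 calls do not show that the genotypes have the same contacts.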
